A study of Mus musculus with 26 samples.

Results

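A group of immediate-early genes, the Egr and Nr4a families and their companions, was followed through every experiment of a study of epigenetic inhibitors in the rd10 mouse, a model of inherited rod degeneration caused by a mutation in the rod phosphodiesterase gene Pde6b. The 10 genes were Egr1, Egr2, Egr3, Egr4, Nab2, Nr4a1, Nr4a2, Nr4a3, Arc and Ier2, out of 37991 Ensembl genes in the table of counts, and each symbol belonged to 1 Ensembl gene. They were chosen by name, with earlier results of these data known, and each treatment was set against the controls of its own experiment. RNA-seq was done on 22 whole retinas and 4 samples of sorted rods, all collected on postnatal day 24 from mice injected intraperitoneally from day 9 onward. The labels give the genotype of the whole retinas as B6.CXB1-Pde6brd10/Jrd10, except that the closing number goes up by 1 from library to library in part of the DZNep experiment and in the UNC1999 experiment, where it is read here as the same strain. Romidepsin, an inhibitor of histone deacetylases, is represented by 3 treated and 3 control samples. UNC0642, an inhibitor of the histone H3K9 methyltransferases G9a and GLP, is represented by 2 treated and 2 control samples. DZNep and UNC1999, both used as inhibitors of the histone H3K27 methyltransferase EZH2, are represented by 2 treated and 4 control samples and by 3 treated and 3 control samples. The rods came from rd10 mice crossed with B6.Cg-Tg(Nrl-EGFP)1Asw/J, which express EGFP under the rod-specific Nrl promoter, and make 2 control samples and 2 samples after GSK2879552, an inhibitor of the histone demethylase LSD1. All controls carried the rd10 mutation, so no healthy retina enters any comparison. The labels name saline as the control injection. The paper describes daily injections, but for DZNep a schedule of daily and then every second day at a lower dose. UNC1999 was dissolved in a mixture with DMSO, PEG300 and Tween-80, while the other inhibitors were given in saline, and the sources differ on whether the UNC1999 controls received saline or the diluent. The labels call the samples biological replicates but do not tie them to single animals or litters, so a retina below means 1 library of whole retina.

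Immediate-early genes are switched on within minutes of synaptic activity, growth factor signaling or cell stress, without new protein synthesis, through pre-bound factors such as SRF with its Elk partners and CREB. Egr1 to Egr4 encode zinc finger transcription factors that bind GC-rich sites, Nab2 encodes a corepressor that docks on Egr proteins and is itself an Egr target, and Nr4a1 to Nr4a3 encode orphan nuclear receptors that act without a known physiological ligand. Arc encodes a capsid-like protein of the postsynapse that drives removal of AMPA receptors, and Ier2 encodes a nuclear protein of the early growth response. In the retina, Egr1 is known from amacrine and bipolar cells that respond to light and image defocus, and the whole group also responds to injury in neurons and in Müller glia.

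Upstream sequence was at hand for Egr2, Egr4, Nab2, Nr4a1, Nr4a2 and Nr4a3, taken from RefSeq on build GRCm38.p6. The sequences of Egr2 and Nr4a1, which both rose under Romidepsin, and of Nr4a2, which did not pass the test there, are shown for the 250 bases before the transcript start, read 5′ to 3′ along the strand of the gene. Capitals mark the CArG box, the binding site of SRF, and the half-site of the cAMP response element, TGACG, or its reverse complement CGTCA, a core of CREB binding.
Egr2, chr10:67537619-67537868, plus strand: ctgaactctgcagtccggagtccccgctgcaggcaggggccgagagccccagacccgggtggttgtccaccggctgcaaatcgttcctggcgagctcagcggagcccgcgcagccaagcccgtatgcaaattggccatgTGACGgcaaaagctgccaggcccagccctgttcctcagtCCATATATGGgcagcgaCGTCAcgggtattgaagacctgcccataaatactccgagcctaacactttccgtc
Nr4a1, chr15:101266596-101266845, plus strand: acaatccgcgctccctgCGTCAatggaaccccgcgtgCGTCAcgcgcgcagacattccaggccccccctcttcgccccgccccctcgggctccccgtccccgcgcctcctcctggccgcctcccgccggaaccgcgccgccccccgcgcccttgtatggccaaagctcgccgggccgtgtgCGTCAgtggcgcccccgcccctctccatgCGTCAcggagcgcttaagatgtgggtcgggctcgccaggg
Nr4a2, chr2:57124004-57124253, minus strand: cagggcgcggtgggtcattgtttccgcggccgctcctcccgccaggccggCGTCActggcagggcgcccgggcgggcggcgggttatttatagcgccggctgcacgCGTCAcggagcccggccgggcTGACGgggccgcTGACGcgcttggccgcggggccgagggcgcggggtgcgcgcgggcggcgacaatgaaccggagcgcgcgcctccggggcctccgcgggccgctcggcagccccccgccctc
Both strands were searched in windows from 250 bases before to 50 bases after each start. The Egr2 window shown is 1 of 5 listed for this gene, 4 of which held a CArG box. The windows starting at 67537619, 67537620 and 67537680 overlap and hold the same box, so these are not separate boxes. The window shown held 1 CArG box, 72 to 63 bases before the start, between a pair of half-sites that begin 111 and 55 bases before the start. A CArG box occurred in 1.63% of the 32851 windows of all genes. Nr4a1, Nr4a2 and Nr4a3 each held 4 half-sites and Egr4 held 2, whereas 20.8% of all windows held at least 1. Nr4a1 also held 1 copy of the Egr site GCGGGGGCG, 60 to 52 bases before the start and clear of the half-sites, a word present in 2.91% of windows. Nab2 held none of these words, and none of the 6 genes held the full element TGACGTCA, found in 1.79% of windows, the Egr site GCGTGGGCG, found in 0.612%, or the Nr4a site AAAGGTCA, found in 1.51%. TATAAA, searched on the strand of the gene alone, occurred in 8.32% of windows but in none of these 6 genes. A match is a run of letters and not evidence of binding.

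**Figure D1:**
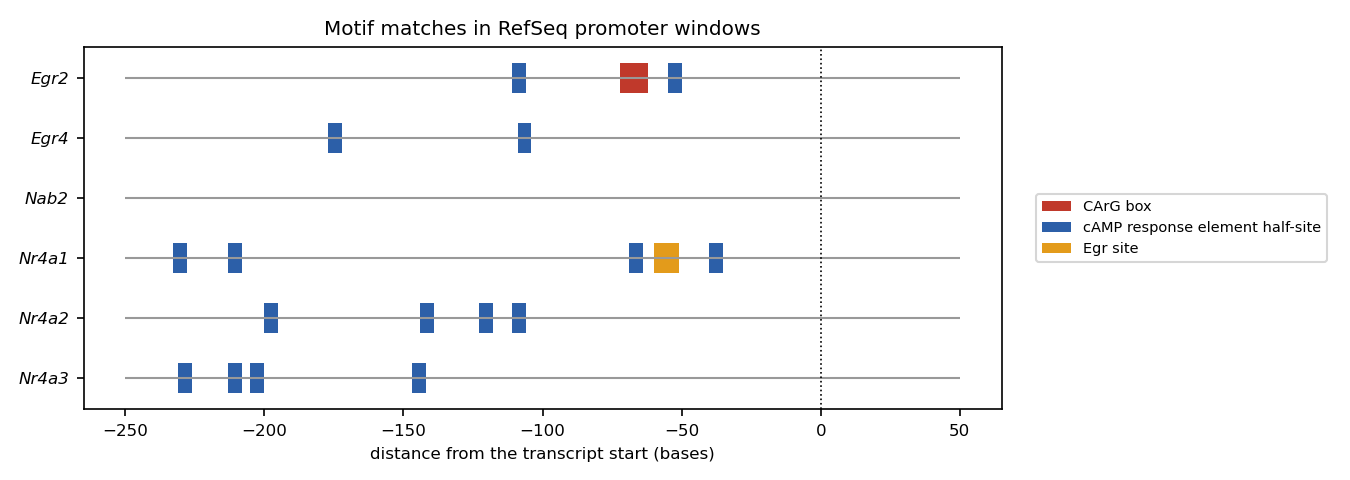
Motif matches in RefSeq promoter windows of 6 of the genes, with the distance from the transcript start in bases on the horizontal axis and 1 line per gene. Red boxes are CArG boxes, blue boxes are half-sites of the cAMP response element and orange boxes are Egr sites; Nr4a1, Nr4a2 and Nr4a3 each have 4 blue boxes, Egr2 has the only red box and Nab2 has no box.

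On build NCBIM37, the build of the counts, the genes lie on 8 chromosomes. Egr1 is at chr18:35020861-35024638 on the plus strand, Egr2 at chr10:66998223-67004936 on the plus strand, Egr3 at chr14:70477252-70479964 on the plus strand and Egr4 at chr6:85461125-85463583 on the minus strand. Nab2 is at chr10:127097974-127105624 on the minus strand. Nr4a1 is at chr15:101097277-101105223 on the plus strand, Nr4a2 at chr2:56959241-56976414 on the minus strand and Nr4a3 at chr4:48058025-48099319 on the plus strand. Arc is at chr15:74499513-74503000 and Ier2 at chr8:87185230-87186751, both on the minus strand. Exons of Nab2 overlap those of Stat6, Tmem194 and Gm16229 on the other strand, and exons of Egr1 overlap those of Gm17507 on the other strand. Whether the counting used strand is not given in the sources used here, so how reads of these overlaps were assigned is not known. The other 8 genes overlap no annotated gene.

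Counted reads ran from 13732959 to 36354094 per retina and from 7289460 to 19864491 per sample of rods. The summed rod markers (10 of 10 genes found) were 8761 to 36126 CPM (counts scaled to one common library size) in control retinas and 54903 to 80454 CPM in control rods. Summed Müller glia markers (8 of 8) were 4316 to 10625 CPM in control retinas and 294 to 420 CPM in control rods, in which the ganglion cell gene Pou4f2 and the amacrine gene Chat were at 0. The 2 UNC0642 controls stood apart with the lowest rod sums, 8761 and 9007 CPM, and DZNep-treated replicate 2 had a sum of lens markers of 74.7 CPM against at most 4.92 CPM in the other libraries of its experiment. In whole retinas, fewer cells of a type and less RNA per cell cannot be told apart.

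In control retinas the order of the 10 genes ran from Egr1 down to Egr4. Levels between genes are compared as CPM per kilobase of exon over the 12 control retinas, each scaled within its own experiment. Egr1 had a median of 46.0 CPM per kb with a range of 31.2 to 63.5, and Nr4a1 followed with a median of 23.0 and a range of 19.1 to 35.9. Ier2 and Nab2 came next with medians of 16.3 and 13.6. Neighbors among these 4 had overlapping ranges. Nr4a2 stood clear of both neighbors, with a median of 3.69 CPM per kb and a range of 3.27 to 4.28. Below it were Egr3 at 2.02, Arc at 1.26, Nr4a3 at 0.856, Egr2 at 0.567 and Egr4 at 0.497, and each overlapped the next. Egr2 had the widest spread among controls, with its highest level 13.5 times its lowest, while Nr4a2 had the narrowest at 1.31 times.

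Romidepsin was the treatment with calls upward. Egr1, Egr2, Nr4a1 and Ier2 were called higher, that is, they had a Benjamini-Hochberg adjusted p-value under 0.05 in edgeR's quasi-likelihood test and an absolute log2 fold change above 1. Thus 4 of 10 genes were called higher, against 0.405% of the 16049 genes tested, and none of the 10 was called lower. All 10 passed the filter on low counts in this and in the other whole-retina experiments. The median log2 fold change of the 10 was 1.27, and that of all genes tested was close to 0. Every treated retina lay above every control for 6 of the 10 genes, an arrangement found in 13.5% of all genes tested.

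Among the Egr factors, Egr1 measured 117, 128 and 96.8 CPM in the controls and 196, 302 and 331 CPM in the treated retinas. The groups did not overlap, and treated replicate 1 was the lowest of the treated retinas. Its log2 fold change was 1.28 ± 0.20 (SE, 3 against 3 retinas, adjusted p = 0.0361), a 2.43-fold rise. Egr2, known for its part in hindbrain patterning and myelination, measured 1.99, 1.87 and 1.16 CPM in controls and 3.96, 6.89 and 5.36 CPM in treated retinas. Again no treated retina reached down to a control, and the log2 fold change was 1.70 ± 0.30 (adjusted p = 0.0490). Egr3, a factor of muscle spindle development and immune cells, was at 3.83, 3.04 and 1.42 CPM in controls and at 3.17, 6.40 and 12.4 CPM in treated retinas. Here the groups overlapped through treated replicate 1, and the log2 fold change of 1.43 ± 0.51 did not pass the test (adjusted p = 0.173). Egr4, the lowest of the family, was at 0.527 to 1.64 CPM in controls and 1.32 to 1.75 CPM in treated retinas, and its log2 fold change was 0.63 ± 0.40 (adjusted p = 0.426).

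Nab2, the corepressor, was at 40.0, 40.6 and 40.2 CPM in controls and 48.9, 50.4 and 44.3 CPM in treated retinas. The groups were apart but the log2 fold change was only 0.25 ± 0.11, and it did not pass the test (adjusted p = 0.255). Its opposite-strand neighbors Stat6 and Tmem194 had log2 fold changes of -0.13 ± 0.13 and 0.10 ± 0.19, and Gm16229, with at most 5 counts in a library, was not tested.

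The Nr4a receptors did not move as one. Nr4a1 was at 47.3, 57.3 and 52.1 CPM in controls and at 93.5, 133 and 151 CPM in treated retinas, with no overlap. Its log2 fold change was 1.27 ± 0.18 (adjusted p = 0.0277). Nr4a2, a factor of dopaminergic neurons, was at 15.0 to 16.7 CPM in controls and at 15.4, 8.82 and 12.8 CPM in treated retinas. One treated retina fell within the control range, and the log2 fold change of -0.36 ± 0.21 did not pass the test (adjusted p = 0.374). Nr4a3 spread from 1.60 to 6.39 CPM among treated retinas, around the control range of 3.53 to 5.98 CPM, at a log2 fold change of -0.27 ± 0.43 (adjusted p = 0.776).

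Arc, the synaptic effector, was at 3.90, 3.10 and 3.95 CPM in controls and at 5.77, 10.1 and 12.1 CPM in treated retinas. The groups were apart, but the log2 fold change of 1.36 ± 0.28 lay just outside the threshold (adjusted p = 0.0638). Ier2 was at 20.7, 26.1 and 24.5 CPM in controls and at 42.5, 76.2 and 66.6 CPM in treated retinas. It did not overlap, and its log2 fold change was 1.38 ± 0.21 (adjusted p = 0.0338). Just inside and outside the threshold therefore stood Egr2 and Arc, at adjusted p-values of 0.0490 and 0.0638.

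The 4 calls were lost together when control replicate 1, 2 or 3 or treated replicate 3 was left out. Fold changes of these genes were still above 1 on the log2 scale. In those fits 81, 0, 0 and 0 of all genes passed, in place of 120. Without treated replicate 1, Arc was called as well and the count rose to 5, beside 217 of all genes called higher in place of 65. The count was also 5 by the likelihood ratio test, with no filter on low counts and with the 9 controls of the library series, where 6 passed. In these fits 281, 211 and 189 of all genes were called higher. By DESeq2 and with all 22 retinas in one fit the count was 6, beside 221 and 312 of all genes. The higher counts thus came with more calls among all genes. Alongside the rise, summed gliosis markers (8 of 8) were at 833 to 1585 CPM in controls and 1592 to 2253 CPM in treated retinas with 2 of the 8 genes passing as higher and Müller glia markers (8 of 8) were at 8642 to 10625 CPM in controls and 5845 to 6903 CPM in treated retinas with none passing. Bipolar cell markers were at 2116 to 2277 and 1366 to 1647 CPM with 1 of 8 passing as lower, microglia markers at 426 to 664 and 331 to 462 CPM with 1 of 9 passing as lower, and markers of the retinal pigment epithelium at 674 to 790 and 396 to 521 CPM with none of 9 passing. Amacrine markers (6 of 8 found) were at 1377 to 1686 and 1156 to 1321 CPM and ganglion cell markers at 1798 to 2146 and 1494 to 1709 CPM. Horizontal cell markers were at 300 to 361 and 264 to 296 CPM and those of endothelium and pericytes at 911 to 1124 and 779 to 804 CPM. Rod markers overlapped, at 15321 to 24311 and 23033 to 32008 CPM, with all 10 fitted above 0. No gene of these further lists passed. No marker of the lists named here was at 0. Here and below, Rlbp1 is in both the Müller glia and the retinal pigment epithelium list, so the 2 sums are not separate. The part of these shifts in the values of the 10 genes was not tested.

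**Figure D2:**
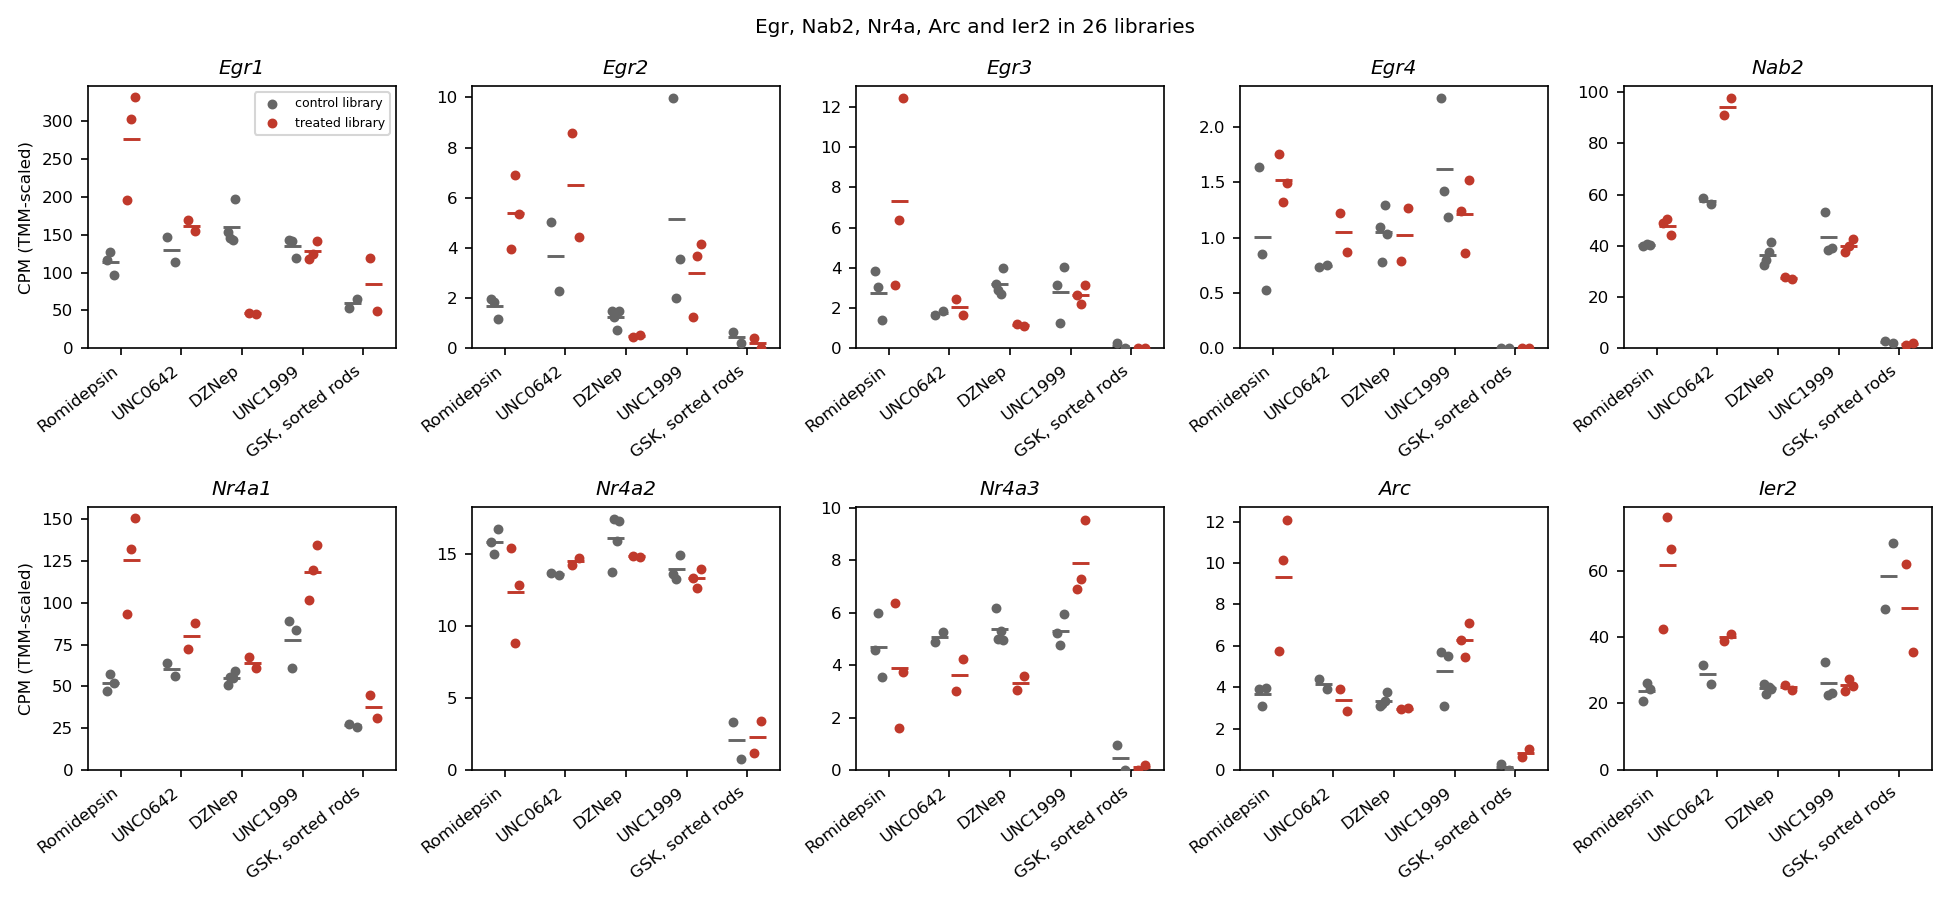
Levels of the 10 genes in CPM scaled within each experiment (vertical axes, linear, 1 panel per gene) in all 26 libraries, with gray points for controls, red points for treated samples and short lines for group means. Under Romidepsin the treated points of Egr1, Egr2, Nab2, Nr4a1, Arc and Ier2 sit above all controls of that experiment. Under DZNep the 2 treated points of Egr1, at 47.1 and 45.9 CPM, sit below all 4 controls of that experiment.

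Under DZNep the Egr factors went the other way. Egr1, Egr2 and Egr3 were called lower, 3 of 10 genes against 0.686% of the 16477 genes tested, and none was called higher, where 1.02% of all genes were. Without the fold threshold, Nab2 and Nr4a3 also passed as lower and Nr4a1 passed as higher, which makes 5 lower and 1 higher beside 9.72% and 12.9% of all genes. The median log2 fold change of the 10 was -0.29 and that of all genes was close to 0. Groups that do not overlap are named below only as a description, since their share over all genes under DZNep is not given here.

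Egr1 was at 153, 146, 143 and 197 CPM in the 4 controls and at 47.1 and 45.9 CPM in the treated retinas. Both treated retinas lay far below every control, and Egr1 fell 3.43-fold, a log2 fold change of -1.78 ± 0.13 (SE, 4 against 2 retinas, adjusted p = 0.000289). Egr3 was at 3.19, 2.90, 2.72 and 4.01 CPM in controls and at 1.20 and 1.12 CPM in treated retinas. Its groups did not overlap either, and the log2 fold change was -1.46 ± 0.24 (adjusted p = 0.00357). Egr2 was at 1.5, 1.24, 0.738 and 1.49 CPM in controls and at 0.467 and 0.521 CPM in treated retinas. It was also apart, at a log2 fold change of -1.35 ± 0.38 (adjusted p = 0.0330). Egr4 was the exception in the family. Its treated levels of 0.788 and 1.27 CPM lay within the controls' 0.782 to 1.29 CPM, and its log2 fold change was -0.11 ± 0.32 (adjusted p = 0.840).

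Nab2 was at 32.4, 34.6, 37.5 and 41.4 CPM in controls and at 27.8 and 27.1 CPM in treated retinas. Both treated values were lower than any control, and the log2 fold change was -0.41 ± 0.10 (adjusted p = 0.0175). Stat6, which overlaps Nab2 on the other strand, also fell, at a log2 fold change of -0.50 ± 0.08 (adjusted p = 0.00279), so a share of the Nab2 change cannot be told apart from that of Stat6. Tmem194 on the same side had 0.22 ± 0.11 (adjusted p = 0.198), and Gm16229, with at most 7 counts in a library, was not tested.

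Nr4a3 was at 6.19, 5.01, 5.31 and 4.97 CPM in controls and at 3.06 and 3.57 CPM in treated retinas. The groups were apart, and the log2 fold change was -0.71 ± 0.16 (adjusted p = 0.0150). Nr4a1 was at 50.6, 55.4, 54.8 and 59.4 CPM in controls and at 67.3 and 61.0 CPM in treated retinas. The treated retinas lay above the controls by a small margin, with a log2 fold change of 0.23 ± 0.07 at the very edge of the threshold (adjusted p = 0.04996). Nr4a2 was at 14.9 and 14.8 CPM in treated retinas, inside the control range of 13.7 to 17.4 CPM. Arc was at 2.95 and 2.98 CPM in treated retinas, just below the lowest control at 3.10 CPM, and its log2 fold change of -0.18 ± 0.16 did not pass the test (adjusted p = 0.467). Ier2 was at 25.6 and 24.1 CPM, inside the control range, with a log2 fold change of 0.02 ± 0.07.

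Egr1 passed as lower in all 14 alternative settings, from -1.53 to -1.83 on the log2 scale, whereas Egr2 and Egr3 lost the call with all 22 retinas in one fit (adjusted p = 0.293 and 0.0929). Egr3 passed in 12 of the 14 settings, but Egr2 in only 5 of the 13 in which it was tested. Egr2 also lost it without DZNep-treated replicate 2, the library with lens transcripts (log2 fold change -1.41, adjusted p = 0.0925), while Egr1 and Egr3 kept it there at -1.76 and -1.42. The adjusted p-value also rose above 0.05 for Egr2 without control replicate 2 or 4 or treated replicate 1, for Nab2 without either treated retina, for Nr4a3 without treated replicate 1 and for Nr4a1 without control replicate 1, 2 or 3 or either treated retina. Rod markers were at 17938 to 29982 CPM in controls and 54467 to 56336 CPM in treated retinas with all 10 passing as higher, bipolar cell markers were at 2035 to 2241 and 1737 to 1829 CPM with 6 of 8 passing as lower, and Müller glia markers were at 9226 to 9629 and 6381 to 7255 CPM with all 8 passing as lower. Markers of the retinal pigment epithelium were at 692 to 849 and 653 to 760 CPM with 5 of 9 passing as higher and 1 as lower, and horizontal cell markers at 341 to 363 and 297 to 302 CPM with 4 of 5 passing as lower. Rlbp1 counts in both the Müller glia and the retinal pigment epithelium sums. None of these markers was at 0 in either group, and their part in the lower Egr values was not tested.

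UNC0642 gave no call among the 10 genes or among any of the 16321 genes tested (background 0%), while 14.7% of genes had an unadjusted p-value under 0.05 and 145 and 152 genes passed by edgeR's likelihood ratio test and by DESeq2. The smallest p-value among the 10 was that of Nab2, which was at 58.7 and 56.3 CPM in controls and at 91.0 and 97.5 CPM in treated retinas. The 4 values formed 2 tight pairs, with a log2 fold change of 0.71 ± 0.08 and an unadjusted p-value in edgeR's test of 6.51e-05, yet the adjusted p-value was 0.224. Nab2 was the only one of the 10 that passed by the likelihood ratio test and by DESeq2, and it passed in the main test without control replicate 1 (adjusted p = 0.0211). Stat6 was at 31.0 and 30.9 CPM in controls and at 33.1 and 29.1 CPM in treated retinas, a log2 fold change of 0.01 ± 0.10, and Tmem194 had -0.16 ± 0.13. Gm16229 had 4 and 4 counts in controls and 10 and 13 counts in treated retinas, apart in the direction of Nab2, with a log2 fold change of 1.94 ± 0.57 that did not pass the test (adjusted p = 0.299).

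Most of the other genes had fitted values above 0 under UNC0642 without passing. Egr1 was at 147 and 113 CPM in controls and at 169 and 154 CPM in treated retinas, at a log2 fold change of 0.31 ± 0.13 (adjusted p = 0.338). Nr4a1 was at 64.2 and 56.3 against 72.7 and 88.1 CPM, with 0.41 ± 0.12 (adjusted p = 0.299). Ier2 was at 31.6 and 25.9 against 38.8 and 41.0 CPM, with 0.47 ± 0.11 (adjusted p = 0.299). These genes, Nab2, Egr4 and Nr4a2 made 6 with both treated retinas above both controls, where 26.9% of all genes had that arrangement, and Nr4a3 was the only one with both below, as in 25.2% of all genes. Egr2 was at 5.05 and 2.27 CPM in controls and at 8.59 and 4.44 CPM in treated retinas, so replicates differed within each group by about as much as the groups did, and the log2 fold change was 0.82 ± 0.45 (adjusted p = 0.408). Log2 fold changes of the rest were 0.26 for Egr3, 0.50 for Egr4, 0.09 for Nr4a2, -0.49 for Nr4a3 and -0.29 for Arc.

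The controls themselves bear on these values. Against the 7 other controls of the same library series, the 2 UNC0642 controls were higher in Egr2 by 1.32 ± 0.33 on the log2 scale (adjusted p = 0.0245) and in Nab2 by 0.53 ± 0.08 (adjusted p = 0.00367), in a comparison in which 13.6% of all genes passed. With all 9 controls of the series as controls, Egr2 and Nab2 were called higher under UNC0642, at 1.70 and 1.09, and Nr4a1 and Ier2 passed, at 0.47 and 0.59. In that fit 0.734% of the 16898 genes tested were called higher and 9.74% passed in either direction. Rod markers were at 8761 to 9007 CPM in controls and 9101 to 13530 CPM in treated retinas and Müller glia markers at 6435 to 7316 and 4546 to 4963 CPM. Cone markers were at 1833 to 1969 and 1585 to 1663 CPM and microglia markers at 581 to 823 and 363 to 532 CPM. No marker of these 4 lists was at 0 or passed, and their part was not tested.

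UNC1999, the other EZH2 inhibitor, gave no call among the 10 genes, where 0.501% of the 15775 genes tested passed as higher and 0.101% as lower. The smallest p-values were those of Nr4a1 and Nr4a3. Nr4a1 was at 88.9, 60.9 and 83.9 CPM in controls and at 102, 120 and 134 CPM in treated retinas. The groups were apart, and the log2 fold change of 0.61 ± 0.15 had an adjusted p-value of 0.0740. Nr4a3 was at 5.23, 4.77 and 5.95 CPM in controls and at 6.90, 7.28 and 9.54 CPM in treated retinas. It was apart as well, with 0.58 ± 0.17 (adjusted p = 0.0955). These were 2 of 10 genes with all treated retinas above all controls, where 13.9% of all genes had that arrangement. Both passed when control replicate 3 was left out, at adjusted p-values of 0.0340 and 0.0427, in a fit in which 2707 genes passed in place of 95. Both also passed by the likelihood ratio test (adjusted p = 0.00457 and 0.0424, 1641 genes in all), and Nr4a1 passed by DESeq2, with no filter on low counts and with all 22 retinas in one fit (adjusted p = 0.00248, 0.0334 and 0.0201). Whether the diluent of UNC1999 was also given to its controls is not clear, so inhibitor and diluent cannot be told apart here.

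Egr1, which fell under DZNep, was at 143, 142 and 119 CPM in controls and at 118, 124 and 141 CPM in retinas treated with UNC1999. The groups covered nearly the same range, and the log2 fold change was -0.07 ± 0.09 (adjusted p = 0.680). Egr2 was at 9.96, 2.00 and 3.57 CPM in controls and at 1.24, 3.69 and 4.15 CPM in treated retinas. Its log2 fold change of -0.72 ± 0.61 was the largest in size of the 10, did not pass the test (adjusted p = 0.517) and turned to 0.16 without control replicate 1. Egr3, Egr4, Nab2, Nr4a2, Arc and Ier2 had log2 fold changes of -0.05, -0.40, -0.12, -0.07, 0.41 and -0.03, all with overlapping groups. Stat6, on the strand opposite Nab2, was lower in all treated retinas than in any control, with -0.37 ± 0.12 (adjusted p = 0.122), Tmem194 had a mean of 12.0 CPM in both groups, and Gm16229 had at most 2 counts in a library. Rod markers were at 19180 to 36126 CPM in controls and 49088 to 66219 CPM in treated retinas, with none of the 10 passing. Markers of the retinal pigment epithelium were at 442 to 660 and 840 to 1030 CPM with 6 of 9 called higher, and microglia markers at 224 to 367 and 147 to 181 CPM with none of 9 passing. No marker of these lists was at 0, and their part was not tested.

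In sorted rods, much of the group was hardly counted. Egr2, Egr3, Egr4, Nr4a3 and Arc did not pass the filter on low counts, with at most 12 counts in any of the 4 libraries and with Egr4 at 0 in all of them. A count of 3 corresponds to 0.151 to 0.412 CPM in these libraries, so levels of Egr4 below that were not detectable at this depth. Nab2 and Nr4a2 were low, at 1.51 to 2.81 CPM and 0.761 to 3.43 CPM. Ier2, Egr1 and Nr4a1 were counted well, at 35.6 to 68.3, 49.95 to 119 and 25.8 to 44.8 CPM. The order of these levels is set beside that of retinas only as a description, since the rod libraries were made with another kit and normalized apart.

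GSK2879552 gave no call in rods among the 5 genes tested or any of the 14478 genes (background 0%), while 4.91% of genes had an unadjusted p-value under 0.05 and 71 and 43 genes passed by the likelihood ratio test and DESeq2. Egr1 was at 53.8 and 64.8 CPM in controls and at 119 and 49.95 CPM in treated rods. The groups overlapped, and the log2 fold change was 0.52 ± 0.37 (adjusted p = 0.987). Gm17507, which shares exon sequence with Egr1 on the other strand, was at 2.14, 2.81, 7.96 and 1.51 CPM in the same 4 libraries and was highest in the library with the highest Egr1. In whole retinas it was at 0 in all but 1 library, at 0.0466 CPM. Nr4a1 was at 27.4 and 25.8 CPM in controls and at 44.8 and 31.0 CPM in treated rods, apart but at a log2 fold change of 0.51 ± 0.27 (adjusted p = 0.987). Arc had 2 and 0 counts in control rods and 12 and 10 counts in treated rods and was not tested. Log2 fold changes of Nr4a2, Nab2 and Ier2 were 0.21, -0.53 and -0.26, and those of the genes opposite Nab2 were 0.87 ± 0.54 for Stat6, 0.08 ± 0.25 for Tmem194 and 0.66 ± 0.86 for Gm16229. Cone markers were at 3060 to 4590 CPM in controls and 1676 to 2231 CPM in treated rods and Müller glia markers at 294 to 420 and 477 to 509 CPM, with no marker of either list at 0 or passing, and their part was not tested.

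**Figure D3:**
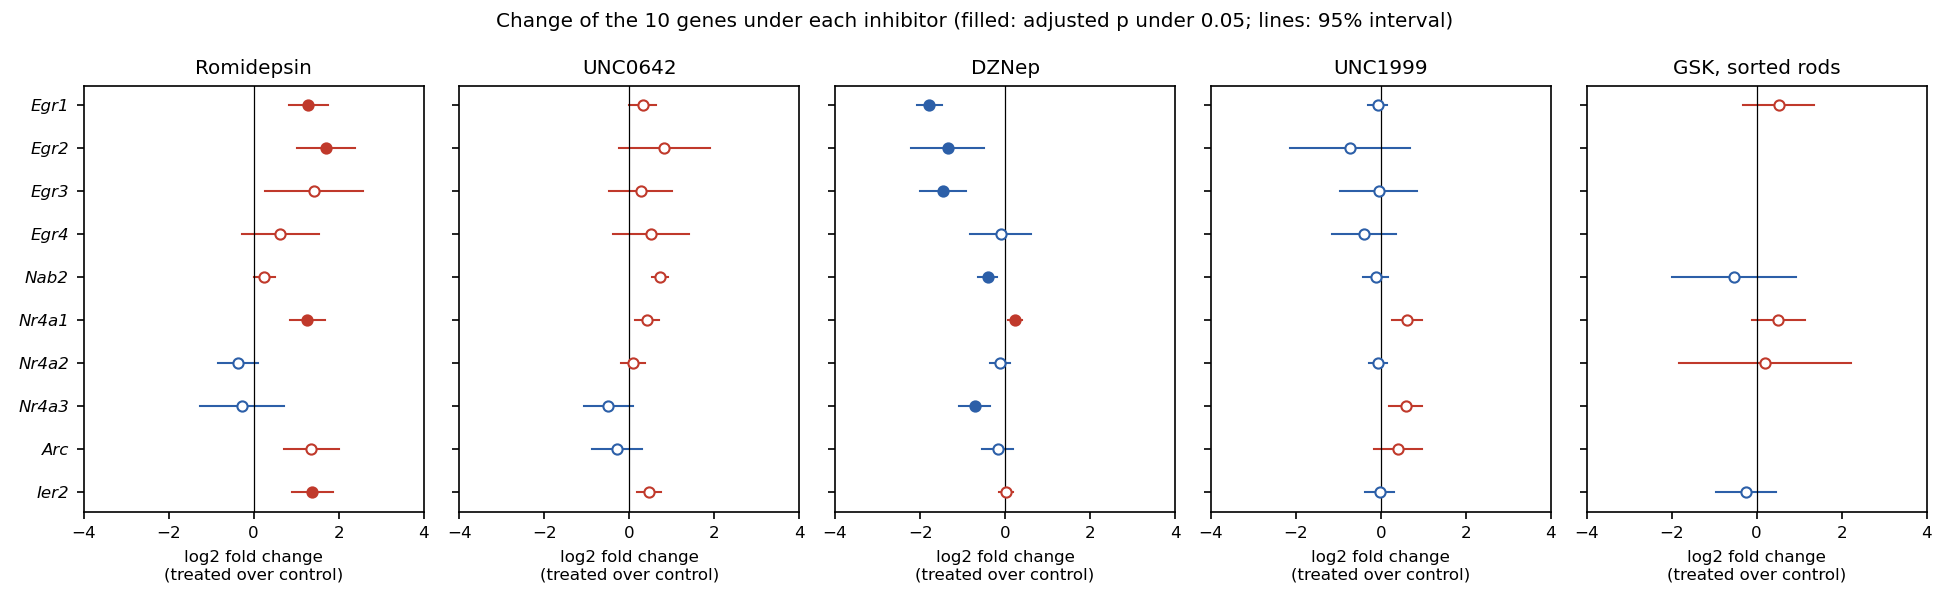
Log2 fold change of treated over control samples (horizontal axes) for the 10 genes in each experiment, with lines for 95% intervals, red for values above 0, blue for values below 0 and filled points for adjusted p-values under 0.05. Filled points appear under Romidepsin for Egr1, Egr2, Nr4a1 and Ier2, under DZNep for Egr1, Egr2, Egr3, Nab2, Nr4a1 and Nr4a3, and nowhere else; genes with no point in rods were not tested.

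The differences between inhibitors were then tested themselves, in one fit of the 22 retinas with 6 pairwise contrasts of the treatment effects. Egr1 differed in 4 of them. Its change under Romidepsin exceeded that under DZNep by 3.06 ± 0.25 on the log2 scale (adjusted p = 5.61e-06) and that under UNC1999 by 1.36 ± 0.23 (adjusted p = 0.00538). Under UNC0642 it exceeded the change under DZNep by 2.08 ± 0.28 (adjusted p = 0.00754). Between the EZH2 inhibitors, DZNep less UNC1999, the difference of Egr1 was -1.70 ± 0.25 (adjusted p = 0.0296), and it was the only gene of 17274 tested that passed in that contrast (0.00579% of genes). Library series, vehicle, injection schedule and inhibitor go together between these 2 experiments, so they cannot be told apart in this difference. Library series and vehicle likewise go with the inhibitor where Romidepsin or UNC0642 is set against UNC1999. Injection schedule goes with it where either is set against DZNep. Egr3 and Nr4a3 had differences of -1.40 ± 0.67 and -1.28 ± 0.44 between DZNep and UNC1999 that did not pass over all genes.

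Ier2 and Nab2 made up the remaining differences, in which library series, vehicle or injection schedule also goes with the inhibitor. Leaving out single libraries, as below, does not separate these. The change of Ier2 under Romidepsin exceeded that under DZNep by 1.36 ± 0.25 (adjusted p = 0.0305) and that under UNC1999 by 1.41 ± 0.24 (adjusted p = 0.00510). Nab2 changed more under UNC0642 than under DZNep, by 1.12 ± 0.17 (adjusted p = 0.0178). Thus 2 of the 10 genes passed in each of Romidepsin less DZNep, Romidepsin less UNC1999 and UNC0642 less DZNep, beside 0.289%, 5.11% and 0.0232% of all genes. None of the 10 passed for Romidepsin less UNC0642 or UNC0642 less UNC1999, where 0.0174% and 0.0116% of all genes did. In the former contrast the 95% interval for Egr1 was 0.43 to 1.53, which does not show that the treatments act alike on it. Egr2 and Egr3 had large but loose differences between Romidepsin and DZNep, 3.05 ± 0.89 and 2.88 ± 0.67. The difference of Egr1 between DZNep and UNC1999 lost its call without any one of 6 libraries, both DZNep-treated retinas among them, with values from -1.59 to -1.75. That of Ier2 between Romidepsin and DZNep lost it without any one of 9 libraries, that of Nab2 without any one of 7, and that of Egr1 between UNC0642 and DZNep without UNC0642 control replicate 2 or either DZNep-treated retina. The differences of Egr1 and Ier2 between Romidepsin and UNC1999, and of Egr1 between Romidepsin and DZNep, passed whichever library was left out.

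**Figure D4:**
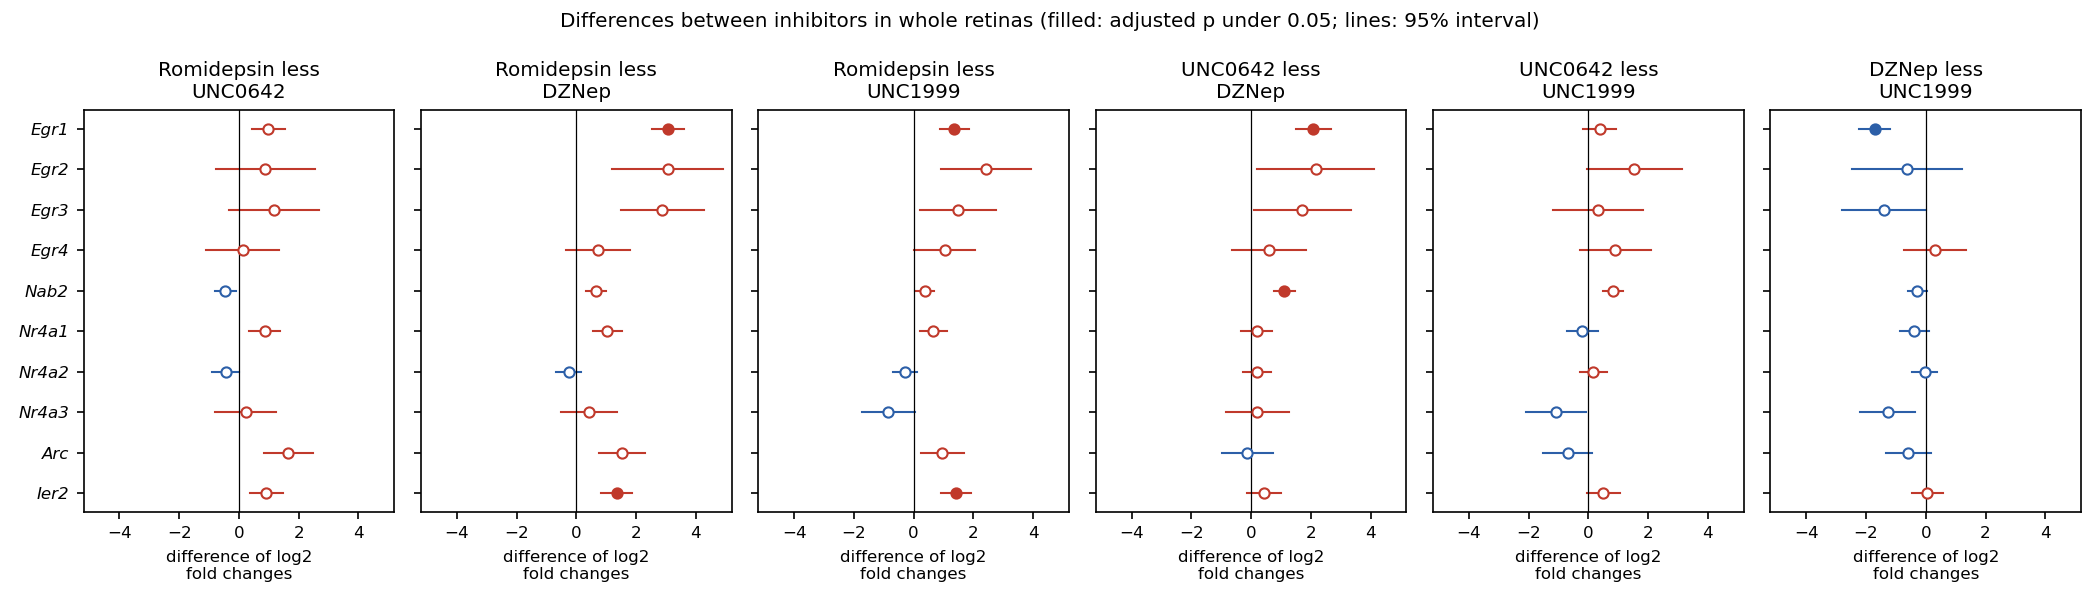
Differences between inhibitors in the log2 fold change of the 10 genes over whole retinas (horizontal axes), 1 panel for each of the 6 contrasts, with lines for 95% intervals and filled points for adjusted p-values under 0.05. Egr1 is filled in 4 panels, Ier2 in 2 and Nab2 in 1.

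Other immediate-early genes were set beside the 10, in a list chosen with earlier results of these data known. The list holds Fosb, Fosl1, Junb, Myc, Gadd45a and Gadd45b, which the paper names as raised in its Romidepsin and UNC0642 group. Its share of passing genes is therefore a description and no independent support. Of 26 listed, which include the Fos, Jun and Klf factors, 10 passed as higher under Romidepsin, beside 0.573% of all genes, and none as lower. Fitted values were above 0 for 25 of them, beside 48.9% of all genes, with a median log2 fold change of 0.90. Gadd45b, a stress-induced growth arrest gene, had the smallest p-value, with a log2 fold change of 2.49 ± 0.30 (18.1 against 102 CPM, adjusted p = 0.0269). Fosl1, an AP-1 subunit, rose by 3.18 ± 0.44 and Junb, another AP-1 subunit, by 2.28 ± 0.31 on the log2 scale (adjusted p = 0.0277 for both). Leaving out 1 library gave counts of 3, 0 and 0 without control replicate 1, 2 and 3, and of 17, 14 and 0 without treated replicate 1, 2 and 3, in fits in which 81, 0, 0, 508, 282 and 0 of all genes passed in place of 120. Under UNC0642 none of the 26 passed, although 23 were fitted above 0, beside 49.7% of all genes, with a median of 0.32. Under DZNep the same list was split, with 4 higher and 2 lower and a median of -0.05. These counts are close to the 12.9% and 9.72% of all genes that passed as higher and lower. Ier3, an early gene of cell survival, had 0.91 ± 0.11 (adjusted p = 0.00127), Gadd45a 0.68 ± 0.10 (adjusted p = 0.00247) and Gadd45b 0.55 ± 0.11 (adjusted p = 0.00945), while Ctgf, a matricellular protein, fell by 0.53 on the log2 scale (adjusted p = 0.00383) and Fos by 0.34 (adjusted p = 0.0348). None of the 26 passed under UNC1999, and none of the 20 tested passed in rods.

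**Figure D5:**
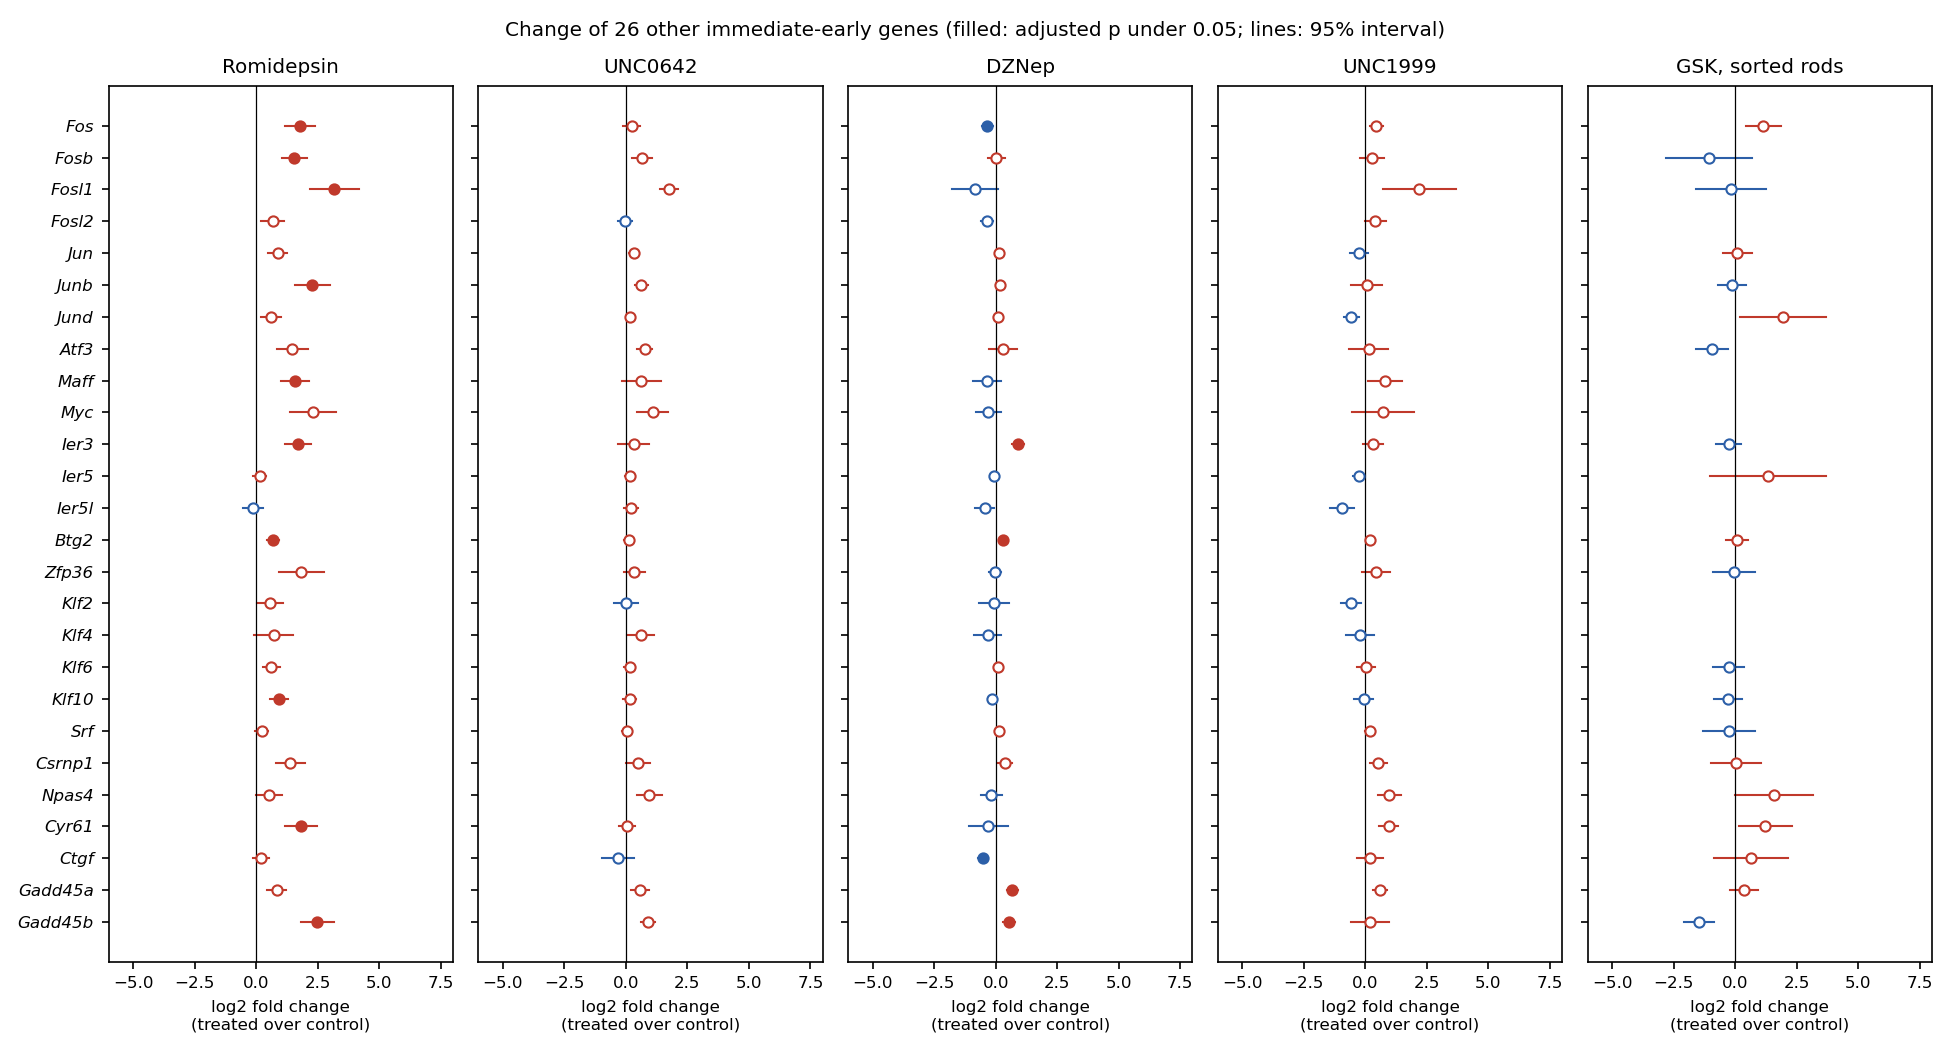
Log2 fold change of treated over control samples (horizontal axes) for 26 other immediate-early genes in each experiment, with lines for 95% intervals and filled points for adjusted p-values under 0.05. In the Romidepsin panel 10 points are filled and 25 of 26 lie above 0; in the DZNep panel 4 filled points lie above and 2 below 0.

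Genes that act above or beside the group were counted in the same way. Of 14 feedback regulators of MAP kinase signaling, Spry2, a receptor kinase antagonist, was the only one that passed under Romidepsin, with 0.91 ± 0.12 (adjusted p = 0.0277, beside 0.573% of all genes higher), and it was also the only one of 13 tested under UNC1999, with 0.71 ± 0.12 (adjusted p = 0.0496, beside 0.501%). Under DZNep, where 12.9% of all genes passed as higher and 9.72% as lower, 4 of the 14 passed as higher and 2 as lower, with Dusp7, a phosphatase of ERK, at 0.43 ± 0.05 (adjusted p = 0.00131), Spry2 at 0.39 ± 0.05 (adjusted p = 0.00187) and Dusp5 at 0.30 ± 0.06 (adjusted p = 0.00887), and with Rgs2, a regulator of G protein signaling, at -0.36 ± 0.07 (adjusted p = 0.00653) and Spred3, an inhibitor of Ras signaling, at -0.46 ± 0.09 (adjusted p = 0.00701). Of 28 neurotrophins, kinases and transcription factors upstream, none passed under Romidepsin, UNC0642 or UNC1999 or in rods, where 26 were tested. Under DZNep 5 passed as higher and 2 as lower, counts close to the 12.9% and 9.72% of all genes. By p-value they were led by the kinase Rps6ka2 at 0.43 ± 0.06 (adjusted p = 0.00156), Mef2c, a factor also found in photoreceptors, at 1.09 ± 0.16 (adjusted p = 0.00224) and Mef2d at 0.36 ± 0.06 (adjusted p = 0.00345), with the Ets factor Elk3 at -0.36 ± 0.09 (adjusted p = 0.0269) among the lower. Of the 4 partners of Egr and Nr4a proteins, Rxra, which pairs with Nr4a receptors, passed under DZNep at 0.46 ± 0.08 (adjusted p = 0.00526). Of 14 activity-dependent effector genes found of 15 listed, 3 passed under DZNep, Vgf at 0.35 ± 0.07 (adjusted p = 0.00750), Scg2 at -0.22 ± 0.06 (adjusted p = 0.0248) and Rasgrp1 at -0.22 ± 0.07 (adjusted p = 0.0483). The counts of 1 higher and 2 lower are again close to those shares of all genes, and none of this list passed in the other experiments.

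Within groups, the 10 genes did not vary as a unit from retina to retina. As a description over 22 retinas that share libraries and scaling, Pearson's r of deviations from the group means ran from -0.71, for Nr4a2 and Ier2, to 0.77 over all 45 pairs, with 17 pairs below 0, among them Nr4a3 with Ier2 at -0.56 and with Arc at -0.44 and Nr4a2 with Egr1 at -0.43. Without the 3 Romidepsin-treated retinas the range was -0.37 to 0.66, with 9 pairs below 0. Egr1, Egr2, Egr3, Nr4a1, Arc and Ier2, singled out after their values were seen, had 15 pairs from 0.34 to 0.77, and from -0.026 to 0.63 without those retinas. Among 17264 genes outside the 10, those most like Egr1 were Fos at 0.87, Bhlhe40 at 0.86, Csrnp1 at 0.86, Slc47a1 at 0.83 and Adamts1 at 0.81, and without those 3 retinas their values were 0.78, 0.75, 0.72, 0.80 and 0.69. Those most like Nr4a1 were 5730508B09Rik and Ddx27 at 0.86, Srsf5 at 0.84, Fosb at 0.83 and Ifrd1 at 0.82.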

How the data were processed

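RNA-seq libraries of 22 whole rd10 retinas and of 4 samples of sorted rods were analyzed, grouped by the labels. The deposited values are raw read counts for 37991 genes: the authors trimmed reads with BBDuk, aligned them to NCBIM37 (Ensembl 67) with HISAT2 2.2.1 and counted with HTSeq 0.11.2, with a strand setting not given in the sources used here. Symbols and exon lengths of 37205 genes came from GENCODE M1. Counts were filtered with filterByExpr and TMM-normalized within each experiment in edgeR 4.0.16 (R 4.3.3), and each treatment was compared with its own controls by the quasi-likelihood F test, adjusted by Benjamini-Hochberg over all genes tested, in place of the authors' likelihood ratio test. A gene passed at an adjusted p under 0.05 and was called if its absolute log2 fold change also exceeded 1. SE was derived from the F statistic. CPM values are TMM-scaled within each experiment. No replicates were copies of each other (chi-square per gene at least 3.89 in each pair). Differences between treatments were tested in a fit of 22 retinas in 8 groups. Named genes were the 10 genes and, in each list, up to 3 passing genes with the smallest p in each direction. The members and lists were chosen with earlier results of these data known. Likelihood ratio test, DESeq2 1.42.0, RLE normalization, other filters, a replicate block, no fold threshold, pooled fits and controls, and leaving out each library were alternatives, and the fit was tested on simulated data. P-values set each difference against the spread estimated from these samples, which the labels do not tie to single animals or litters. The likeness of genes without the Romidepsin-treated retinas was added after seeing the data. A gene of the upstream list is counted but not reported here by name.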

Additional observations from a re-analysis of the deposited data

Results flagged for a closer look

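All results listed here are differences between 2 inhibitors in the change of a gene, tested with edgeR's quasi-likelihood test over the 22 retinas. In each, library series, vehicle or injection schedule goes with the inhibitor and cannot be told apart from it. For Egr1 the difference was 3.06 between Romidepsin and DZNep, 1.36 between Romidepsin and UNC1999, 2.08 between UNC0642 and DZNep, and -1.70 between DZNep and UNC1999, on the log2 scale. Against the controls of its own experiment, Egr1 was above all in 3 of 3 retinas under Romidepsin and in 2 of 2 under UNC0642. It was below all in 2 of 2 under DZNep, where 9.72% of all genes passed as lower. The share of all genes below all controls under DZNep is not given here. Of all genes, 13.5% and 26.9% lay above all controls under Romidepsin and UNC0642, and Egr1 did not pass under UNC0642 (adjusted p = 0.338). For Ier2 the difference was 1.36 between Romidepsin and DZNep and 1.41 between Romidepsin and UNC1999. For Nab2 it was 1.12 between UNC0642 and DZNep, with the UNC0642 controls themselves 0.53 higher than the other 7 controls of the library series. No sample of the 10 genes stood outside its group of 4, the only group size at which single samples could be examined.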

How the results depend on the processing

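Of the 45 fold changes of single genes, 16 kept their direction and their side of the threshold in every alternative and 29 did not in at least 1. Of the 579 values these alternatives gave, 483 kept both, 44 lost and 29 gained significance, and 23 changed sign. Sign changes were confined to genes that did not pass. With the 9 controls of the library series, Egr3 and Nr4a2 under UNC0642 turned to -0.47 and -0.17 and Egr4 under DZNep to 0.082. With a replicate block, Egr4 under DZNep turned to 0.062 and Egr3 under UNC1999 to 0.033. Leaving out single libraries gave ranges across 0 for Nr4a3 under Romidepsin (-0.80 to 0.10), for Egr3 under UNC0642 (-0.056 to 0.50), for Egr4 (-0.41 to 0.27) and Ier2 (-0.027 to 0.061) under DZNep, for Egr2 (-1.12 to 0.16), Egr3 (-0.42 to 0.33), Nab2 (-0.20 to 0.045) and Ier2 (-0.12 to 0.15) under UNC1999, and for Egr1 (-0.24 to 1.01), Nr4a2 (-0.71 to 1.56) and Ier2 (-0.71 to 0.082) in rods.

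The count of genes called higher under Romidepsin ran from 0 to 5 over single libraries left out, beside 0 to 217 of all genes. It was 5 by the likelihood ratio test, 6 by DESeq2, 5 with no filter, 6 with all 22 retinas in one fit, 5 with the 9 controls and 2 with the replicate block, which called Nr4a1 and Ier2. Of all genes, 281, 221, 211, 312, 189 and 75 were called higher in these fits, in place of 65. Under Romidepsin and UNC1999 replicate numbers showed no pairing. Same-numbered libraries correlated at 0.21, -0.05 and -0.28 and at -0.28, 0.23 and -0.04, and not every library correlated best with its own number. Under UNC0642 both same-numbered pairs were at 0.21 and the other pairs at -0.21. With 2 libraries in a group the deviations mirror each other, so pairing cannot be decided there. The same holds under DZNep, at -0.21 and 0.020, and in rods, at -0.079. The block gave 3 genes passing under UNC0642 in place of 0 (589 genes in all) and 2 under DZNep in place of 6 (1415 genes in all, in place of 3734). Without the fold threshold, 1 gene was higher and 5 were lower under DZNep. Only 1 was called lower with all 22 retinas in one fit or with the 9 controls of the series, beside 62 and 110 of all genes in place of 113. With those 9 controls, 2 were called higher under UNC0642, beside 124 of all genes.

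Between treatments, Romidepsin less DZNep gave 7 genes by the likelihood ratio test, 7 by DESeq2 and 6 with no filter in place of 2, Romidepsin less UNC0642 gave 2 by either test in place of 0, and UNC0642 less UNC1999 gave 1 by either test or with no filter in place of 0. Over single libraries left out, counts ran from 1 to 6, 0 to 4 and 0 to 1 in these contrasts, from 2 to 7 for Romidepsin less UNC1999, from 0 to 2 for UNC0642 less DZNep and from 0 to 1 for DZNep less UNC1999. How many of all genes passed in these alternative fits of the contrasts is not given here. Rises and falls in these counts therefore cannot be told apart from a change in passing genes at large. The causes were not tested. Groups of 2 to 4 samples limit the precision, as do low counts of Egr2, Egr4, Nr4a3 and Arc.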
